A study of Rattus norvegicus with 6 samples.

Results

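The 10 genes described here encode transcription factors that set or mark the identity of striatal neurons, and they were taken from the 25629 genes of the count matrices by their symbols. They are the forkhead genes Foxp1 (ENSRNOG00000009184) and Foxp2 (ENSRNOG00000054508), the LIM-homeobox gene Isl1 (ENSRNOG00000012556), the gene of the helix-loop-helix factor Ebf1 (ENSRNOG00000028845) and the TALE homeobox gene Meis2 (ENSRNOG00000004730). The zinc finger genes are Bcl11b (ENSRNOG00000005776), Sp9 (ENSRNOG00000028187), Tshz1 (ENSRNOG00000016246), Casz1 (ENSRNOG00000013474) and Zfhx3 (ENSRNOG00000014452), of which Tshz1 and Zfhx3 also code for homeodomains. Each symbol belongs to 1 row of the matrices, and all 10 genes had UMIs (unique molecular identifiers, each standing for a captured RNA molecule) in neurons.

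The nuclei came from bilateral punches of the nucleus accumbens, the ventral striatum, of adult Sprague-Dawley rats aged 90 to 120 postnatal days. Every rat had self-administered heroin for 7 days at a fixed ratio of 1 and for 4 days at a fixed ratio of 3, then met a progressive ratio schedule on day 12 and the ratio of 3 again on days 13 and 14. Brains were taken 1 h after an injection of saline or of naloxone, an antagonist of opioid receptors. Tissue of 6 male and 6 female rats was combined into 6 libraries, so that each library mixes sexes and animals. Saline replicates 1 to 3 and naloxone replicates 4 to 6 are those libraries. Both groups carry the heroin history, and rats without heroin were not analysed here. The p-values therefore measure the spread between pooled libraries, not between single rats.

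Spiny projection neurons, the bulk of striatal neurons, are commonly divided into a direct pathway type with the dopamine receptor Drd1 and an indirect pathway type with Drd2. Background knowledge from development places Isl1 and Ebf1 on the Drd1 side of this division and Sp9 on the Drd2 side, with Foxp1, Bcl11b and Meis2 shared by both. Casz1 and Tshz1 are used as marks of less common spiny neurons, and Isl1 also belongs to the cholinergic interneuron lineage. A transcription factor rarely names a cell alone, so the combination of factors in a nucleus was read beside each factor's level.

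Nuclei were grouped, or gated, by marker genes and not by the 10 factors, and a gate gene counted as on at 2 or more UMIs. The 5 rarer gate genes were read before the dopamine receptors Drd1 and Drd2: the sulfotransferase gene Chst9, the otoferlin gene Otof, the dopamine receptor gene Drd3, the somatostatin gene Sst and Slc5a7. Slc5a7 codes for the choline transporter of cholinergic neurons and stands in place of Chat, which was not used here. A neuron with exactly 1 of these genes on entered that gate, whatever its Drd1 or Drd2 count, and the Drd1 and Drd2 gates were set among the rest. Of 35924 neuronal nuclei, 291 fell in the Drd1 gate, 4692 in the Drd2, 2929 in the Chst9, 4074 in the Otof, 2743 in the Drd3, 380 in the Slc5a7 and 166 in the Sst gate. Another 2309 nuclei had several of the rarer genes on, 17 had Drd1 and Drd2 on, and 18323 (51.0%) had no gate gene on. Drd1 was sparsely captured, with 3628 neurons at 1 UMI, 631 at 2 and 147 at 3 or more. Nuclei with few Drd1 UMIs therefore sit among the ungated neurons, and a gate is a rule on counts rather than a cell type.

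Other markers were read in the gates to check them, in CPM, the gene's UMIs in the summed nuclei scaled to a fixed total. Adora2a, the adenosine receptor gene of indirect pathway neurons, averaged 67.0 ± 10.0 CPM in the Drd2 gate and 3.36 ± 3.42 in the Drd1 gate (SD, n = 6 libraries, as for all gate levels below). Pdyn, the dynorphin gene of direct pathway neurons, averaged 26.6 ± 11.1 CPM in the Drd1 gate and 3.43 ± 0.510 in the Drd2 gate. The Slc5a7 gate held the vesicular glutamate transporter gene Slc17a8 at 336 ± 115 CPM, known in striatal cholinergic neurons, and the Sst gate held Npy at 206 ± 87.5 and Nos1 at 382 ± 140 CPM. The Otof gate was mixed: Drd2 stood there at 154 ± 9.48 CPM and Adora2a at 28.1 ± 4.88. Markers of cortical excitatory neurons, Slc17a7 and Neurod2, averaged at most 0.363 CPM in any gate. UMIs of glial markers were present too: the oligodendrocyte marker list, at 11530 CPM in oligodendrocytes, still summed to between 176 and 435 CPM on average in the gates. Whether these UMIs came from free RNA was not tested.

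The 6 libraries held between 55739350 and 76272798 UMIs, with medians of 4195.5 to 6427 UMIs over the nuclei used. Naloxone replicate 5 had the highest median mitochondrial share, 0.565%, against 0.153% to 0.345% in the others. Nuclei with both Xist and Y-linked UMIs made up 32.2% to 44.5% of the removed doublets and 5.76% to 8.79% of the nuclei used. Any pair of libraries shared 19 to 45 cell barcodes.

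Foxp1 and Foxp2 ran in opposite directions between the Drd2 and Chst9 gates. Foxp1, which helps spiny neurons mature, reached 1226 ± 90.1 CPM in the Drd2 gate (lowest 1110, median 1216, highest 1342). In the Chst9 gate it stood at 281 ± 39.3 CPM (257, 269 and 360). No library of the Chst9 gate came near the lowest of the Drd2 gate. Foxp2, its relative known from vocal learning circuits, had 3071 ± 201 CPM in the Chst9 gate (2735, 3125 and 3312) but 207 ± 43.0 in the Drd2 gate (148, 207 and 272). Drd1-gated nuclei held both, Foxp1 at 905 ± 104 CPM and Foxp2 at 1179 ± 127, and the Drd3 gate was alike with 928 ± 117 and 1094 ± 72.9. Between the Drd1 and Drd3 gates the differences of 23.5 CPM in Foxp1 and 84.4 CPM in Foxp2 were smaller than their SDs over libraries, 150 and 196 CPM.

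Differences between gates were tested by edgeR in a single fit with the library as a block, and every contrast below shares the Drd1 gate as its reference. Each contrast covered 12642 genes, and SE is the standard error of the log2 difference. Sums over nuclei cannot tell fewer expressing nuclei from less RNA in each. Against the Drd1 gate, the Drd2 gate differed in 6 of the 10 factors, 3 higher and 3 lower, beside 4.41% of all genes (2.37% higher, 2.04% lower). In this Drd2 contrast the count ran from 4 to 8 over the alternatives given at the end, and from 4 to 5 leaving out a library. Foxp1 was higher by 0.47 on the log2 scale (SE 0.09, edgeR adjusted p = 0.00025). Foxp2 was 5.72-fold lower (log2 difference -2.52, SE 0.19, edgeR adjusted p = 3.2e-14). The Chst9 gate differed from the Drd1 gate in all 10 factors, 5 higher and 5 lower, beside 21.5% of all genes (10.4% higher, 11.1% lower). That count ran from 7 to 10 over the alternatives, with 8 by DESeq2 and 8 to 10 leaving out a library. In the Chst9 gate Foxp1 was 3.48-fold lower (log2 difference -1.80, SE 0.09) and Foxp2 2.39-fold higher (1.26, SE 0.19).

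The log2 ratio of Foxp2 to Foxp1 was used to place the gates on 1 scale. It compares gates only, because nuclear counts of different genes also follow gene length and capture. The ratio was 3.46 ± 0.27 in the Chst9 gate (2.93 to 3.62 over 6 libraries) and 0.92 ± 0.18 in the Otof gate. It was 0.38 ± 0.30 in the Drd1, 0.24 ± 0.23 in the Drd3 and -2.59 ± 0.33 in the Drd2 gate (-3.18 to -2.28). Every library of the Chst9 gate lay above every library of the other spiny neuron gates, and every library of the Drd2 gate lay below them. The Slc5a7 gate (-1.41 ± 1.11) and the Sst gate (-1.94 ± 2.17) spread widely, with few UMIs of Foxp2.

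**Figure D1:**
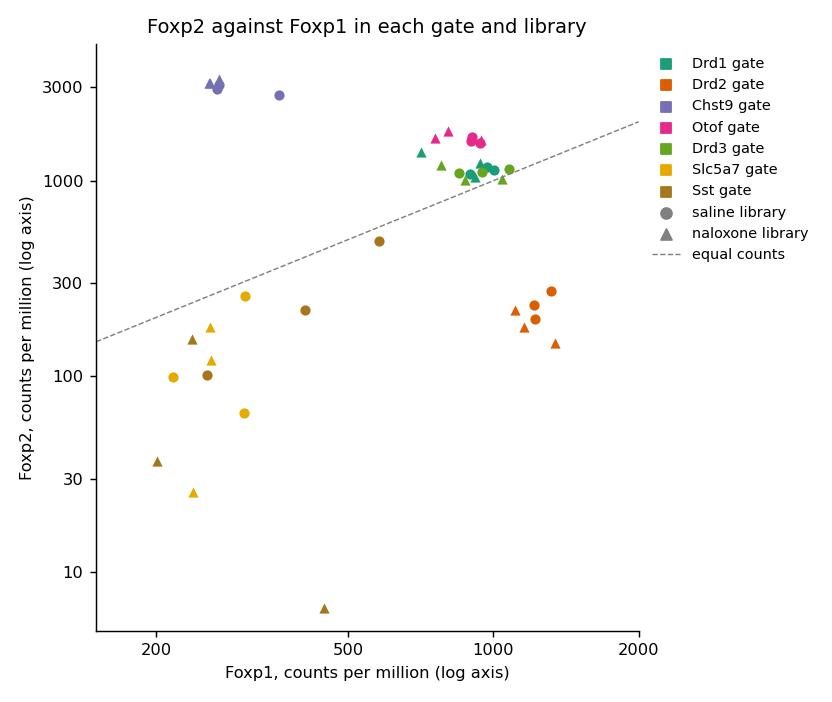
Foxp2 against Foxp1 in CPM, both on log axes, with 1 point per library and gate, saline and naloxone libraries drawn with different marks, and a dashed line at equal counts. The 6 points of the Chst9 gate sit at the upper left (Foxp2 at 2735 to 3312 CPM), those of the Drd2 gate at the lower right (Foxp1 at 1110 to 1342 CPM), and those of the Drd1 and Drd3 gates between them.

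Isl1 and Ebf1 are the factors of the direct pathway lineage, and the stretch of 250 bases before each start site is shown first because the genes fell together in some gates and parted in another. Foxp1 is shown with them as the forkhead gene with a forkhead core motif in its own window. The sequences are RefSeq's for GRCr8, another build than the one counted on, and run 5' to 3' on the gene's strand. Capitals mark the forkhead core TGTTTAC. The windows are chr2:49823443-49823692 (minus strand) for Isl1, chr10:29601671-29601920 (plus strand) for Ebf1 and chr4:133353281-133353530 (minus strand) for Foxp1.
Isl1: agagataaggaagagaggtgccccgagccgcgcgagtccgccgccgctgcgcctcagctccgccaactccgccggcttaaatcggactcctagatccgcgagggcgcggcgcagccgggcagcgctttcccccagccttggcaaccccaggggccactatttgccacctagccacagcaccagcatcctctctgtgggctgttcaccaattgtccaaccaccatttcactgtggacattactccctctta
Ebf1: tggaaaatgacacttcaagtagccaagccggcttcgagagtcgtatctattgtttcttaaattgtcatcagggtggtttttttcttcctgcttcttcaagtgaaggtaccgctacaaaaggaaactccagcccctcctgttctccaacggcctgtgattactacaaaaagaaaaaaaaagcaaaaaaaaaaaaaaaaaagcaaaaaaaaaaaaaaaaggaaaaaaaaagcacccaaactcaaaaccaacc
Foxp1: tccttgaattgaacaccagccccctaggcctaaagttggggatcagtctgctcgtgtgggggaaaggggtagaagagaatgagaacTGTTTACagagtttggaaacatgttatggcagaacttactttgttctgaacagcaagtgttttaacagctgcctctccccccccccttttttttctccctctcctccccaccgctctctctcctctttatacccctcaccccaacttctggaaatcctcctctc
The Isl1 window is GC-rich, at 62.8% with 19 CpG sites, the Ebf1 window is not, at 36.8% with 5, and the median over all 33469 such windows is 51.2%. Foxp1 has 49.6% GC. A search on both strands for TGTTTAC and for the MEIS core TGACAG found 1 match in these 3 windows, the TGTTTAC that begins 164 bases before the Foxp1 start. That motif occurs in 3.21% of all windows and TGACAG in 15.8%. A match is a run of letters and not a measured binding site. Because Foxp1 was shown for its match, the count in these 3 windows is not a rate to set beside those shares. RefSeq windows were at hand for 7 of the 10 factors, and the only other match in them was a TGACAG that begins 109 bases before the Tshz1 start.

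Isl1 stood at 52.7 ± 15.5 CPM in the Drd1 gate (33.4, 55.3 and 68.3 in saline replicates 1 to 3; 62.4, 63.2 and 33.6 in naloxone replicates 4 to 6). In the Drd2 gate it stood at 7.82 ± 2.29 (6.41, 8.16 and 5.89; 10.1, 5.47 and 10.9). The lowest Drd1 library was thus above the highest Drd2 library, and Isl1 was 6.34-fold lower in the Drd2 gate (log2 difference -2.66, SE 0.21, edgeR adjusted p = 3.32e-14). Ebf1 read 38.2, 129 and 102 CPM in the Drd1 gate after saline and 153, 45.8 and 57.7 after naloxone. In the Drd2 gate it read 6.72, 12.1 and 9.30, then 10.1, 6.53 and 11.3. The gates did not overlap although Ebf1 varied widely among Drd1 libraries of 32 to 62 nuclei, and Ebf1 was 8.47-fold lower in the Drd2 gate (log2 difference -3.08, SE 0.40, edgeR adjusted p = 1.04e-07). Both genes were also lower in the Chst9 gate, Isl1 by 5.30-fold and Ebf1 by 5.57-fold. The Drd1-gate Ebf1 was not accompanied by blood vessel markers: 5 of them summed to 0 to 8.72 CPM in the Drd1 libraries and 7350 CPM in vascular nuclei, with Cldn5 and Rgs5 at 0 UMIs in the Drd1 gate.

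The Slc5a7 gate parted the pair. Isl1 was highest there at 147 ± 36.0 CPM (129, 136 and 143 after saline; 112, 216 and 148 after naloxone), 2.69-fold above the Drd1 gate (log2 difference 1.43, SE 0.16, edgeR adjusted p = 2.2e-10). Ebf1 was 6.73-fold below it, at 13.6 ± 14.5 CPM. All 6 Slc5a7 libraries lay above all Drd1 and Drd3 libraries in Isl1. The full order of Isl1 was Slc5a7, Drd3 (75.8 ± 12.6 CPM), Drd1, Otof (25.0 ± 1.59), then Chst9 (10.2 ± 1.84), Sst (9.72 ± 7.04) and Drd2, and the last 3 did not differ beyond the spread of their differences. Each of the first 4 steps held in 6 of 6 libraries. An exact permutation test that flips the sign of each library's difference (two-sided) gave p = 0.03125 for each, the lowest value open to 6 libraries. Adjusted over the 60 neighbour pairs of the 10 factors that p is 0.0987, so no single step passes 0.05. For Ebf1, each of the 4 steps from Drd1 down to Chst9 (Otof 65.6 ± 23.7, Drd3 44.9 ± 13.4, Sst 36.2 ± 77.2 and Chst9 15.8 ± 5.13 CPM) was smaller than its own spread. The Sst mean rested on naloxone replicate 4, at 193 CPM beside 0, 17.3, 0, 6.57 and 0, and vascular markers in that gate were also highest in that library (59.4 CPM against 0 to 23.1). Their part in the Ebf1 value was not tested.

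Tshz1, Casz1 and Sp9 were higher in the Chst9 gate than in the Drd1 gate. Tshz1, a teashirt-family repressor, stood at 321 ± 21.0 CPM in the Chst9 gate (311, 299 and 327 after saline; 299, 340 and 348 after naloxone). It stood at 105 CPM in the Otof gate, 46.1 in the Drd3, 41.9 in the Drd1 and 32.6 in the Drd2 gate. The lowest Chst9 library was above the highest Otof library, 116 CPM. Against the Drd1 gate Tshz1 was 6.76-fold higher in the Chst9 gate (log2 difference 2.76, SE 0.12, edgeR adjusted p = 1.23e-23) and 2.46-fold higher in the Otof gate (1.30, SE 0.14). Casz1, a zinc finger regulator of cell fate, stood at 39.5 CPM in the Chst9 gate (34.3, 39.9 and 44.7 as lowest, median and highest) and 34.7 in the Otof gate (24.3, 34.6 and 44.9). These gates overlapped, and both were above the Drd1 gate by 5.25-fold and 5.15-fold. Casz1 was low and uneven in the Drd1 gate, at 5.96 ± 5.96 CPM, so the size of these folds is loose. Both calls held in all 14 alternatives, with log2 differences of 2.01 to 4.36 (Chst9) and 2.02 to 4.46 (Otof). In the Drd3 gate Casz1 was 2.90-fold higher (edgeR adjusted p = 0.0244), a call lost without saline replicate 3 (adjusted p = 0.189), naloxone replicate 4 (0.0747) or naloxone replicate 5 (0.102).

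Sp9, known as a factor of the indirect pathway lineage in development, was near the limit of detection in these adult nuclei. Its gate means ran from 0.567 to 4.30 CPM, from 577 UMIs in all neurons together. In the Drd2 gate it averaged 2.64 ± 0.597 CPM and its difference from the Drd1 gate did not pass the test (log2 difference 1.16, SE 0.66, edgeR adjusted p = 0.431). The higher value in the Chst9 gate did (4.23 ± 1.48 CPM, log2 difference 1.68, edgeR adjusted p = 0.0487), and it was lost without any of the libraries but naloxone replicate 5 (adjusted p 0.0588 to 0.182).

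Meis2, Bcl11b and Zfhx3 were broad. Meis2, a homeobox factor of the embryonic striatum, averaged 1931 CPM in the Chst9, 1783 in the Drd2, 1723 in the Otof, 1391 in the Drd1 and 1154 in the Drd3 gate. The Sst gate, at 417 CPM, and the Slc5a7 gate, at 254, were 4.05-fold and 5.91-fold below the Drd1 gate. Within the spiny neuron gates the Meis2 contrasts were small: 0.39 on the log2 scale for Drd2 (edgeR adjusted p = 0.0423), a call that was lost without any 1 of the 6 libraries (adjusted p 0.0550 to 0.144), and 0.37 for Chst9 (0.0188). The Chst9 call was lost by DESeq2 (adjusted p = 0.085). By edgeR it was lost with doublets kept (adjusted p = 0.0568), with gate genes on at 3 UMIs (0.0653) and without the library block (0.0674). Bcl11b, also called Ctip2, a zinc finger factor of spiny neurons, was 312 CPM in the Drd1, 310 in the Drd3, 284 in the Drd2 and 274 in the Otof gate, and none of these contrasts with the Drd1 gate passed the test. It was 1.66-fold lower in the Chst9, 1.65-fold lower in the Sst and 5.87-fold lower in the Slc5a7 gate (57.7 ± 26.1 CPM). Zfhx3, a large homeobox factor, had its highest gate mean in the Slc5a7 gate (166 ± 44.7 CPM), 1.75-fold above the Drd1 gate. The step from there to the next gate, Drd2, was 39.2 CPM, smaller than its SD over libraries, 48.7 CPM. Zfhx3 was lowest in the Chst9 gate (66.2 ± 15.7 CPM), a call lost without saline replicate 1 (edgeR adjusted p = 0.0575). Its higher value in the Drd2 gate (127 CPM, log2 difference 0.54, edgeR adjusted p = 0.0210) did not last when saline replicate 3 or any 1 of the naloxone libraries was removed (0.0520 to 0.154).

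**Figure D2:**
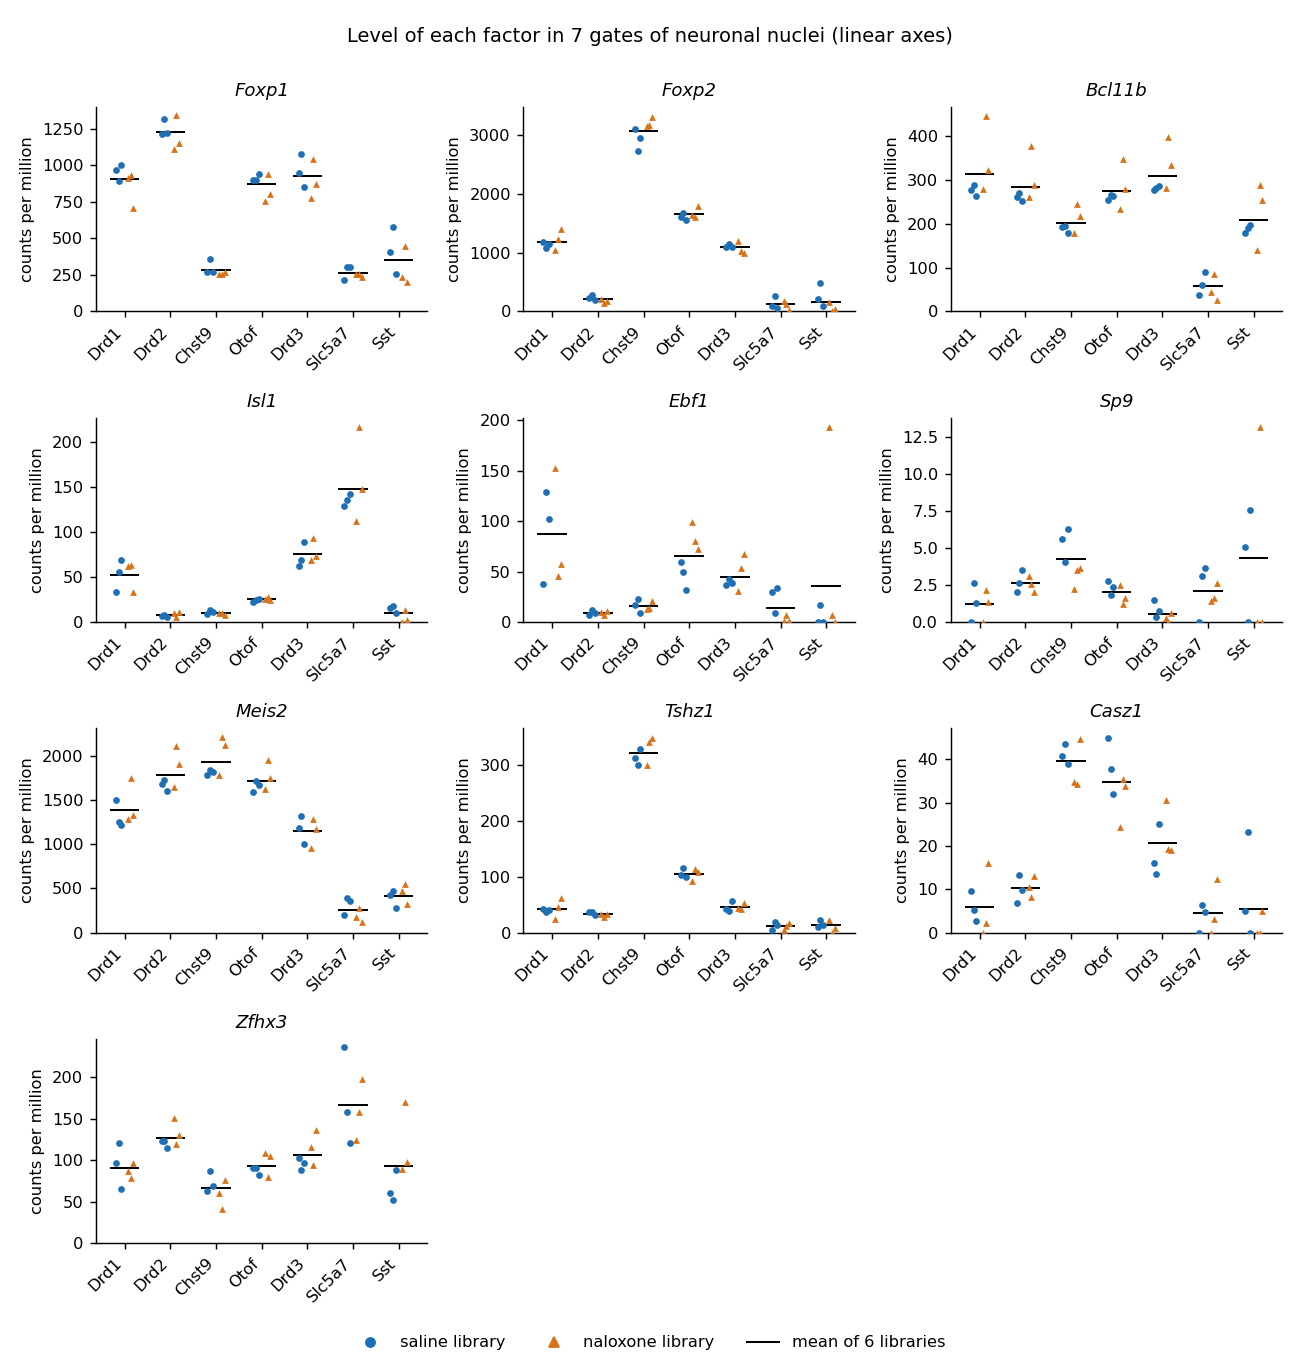
Levels of the 10 factors in CPM (linear axes from 0, a panel each) in the 7 gates, with 1 point per library, saline and naloxone marked apart, and a bar at the mean of the 6 libraries. The mean of Foxp1 peaks in the Drd2 gate, those of Foxp2 and Tshz1 in the Chst9 gate, and those of Isl1 and Zfhx3 in the Slc5a7 gate. For Zfhx3 the step to the Drd2 gate is smaller than its SD.

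The remaining gates were counted in the same way. In the Slc5a7 gate 8 of 10 factors passed the test, beside 32.6% of all genes (16.5% higher, 16.1% lower), with Isl1 and Zfhx3 higher and Foxp1, Foxp2, Bcl11b, Ebf1, Meis2 and Tshz1 lower. In the Sst gate 7 passed, beside 21.4% of all genes (9.05% higher, 12.4% lower), and all 7 were lower, with Foxp1 3.15-fold, Foxp2 9.36-fold and Isl1 6.55-fold down. The Ebf1 call there did not last when saline replicate 2, saline replicate 3 or naloxone replicate 6 was removed (edgeR adjusted p 0.0533 to 0.109). In the Otof gate 3 passed, beside 4.03% of all genes (2.53% higher, 1.5% lower): Tshz1 and Casz1 higher and Isl1 1.99-fold lower. The Isl1 call was lost with gate genes on at 3 UMIs (edgeR adjusted p = 0.139). In the Drd3 gate 2 passed, beside 5.73% of all genes (3.33% higher, 2.4% lower): Casz1 and Isl1, both higher. Isl1 was 1.46-fold higher there (log2 difference 0.54, SE 0.16, edgeR adjusted p = 0.0246), a call lost without saline replicate 1 (0.138) or naloxone replicate 6 (0.143). The median log2 difference of the 10 factors was -1.90 in the Slc5a7 and -1.84 in the Sst gate, with all genes at 0.01 and -0.03. It was 0.15, -0.08 and 0.23 in the Drd2, Chst9 and Otof gates, with all genes between 0.03 and 0.04.

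The combination in a nucleus was counted after thinning each nucleus to 2000 UMIs, which left out 0.27% to 3.6% of nuclei in the gates and 64.1% of the shallower oligodendrocytes. Foxp2 was seen in 93.1 ± 1.92% of Chst9-gated nuclei, 70.2% of Drd1-gated, 67.1% of Drd3-gated, 62.6% of Otof-gated and 19.5 ± 2.40% of Drd2-gated nuclei. Oligodendrocytes, which should lack it, had 7.22 ± 2.25%, the highest of the non-neuronal classes. The others had 4.48% (astrocytes), 4.17% (precursors), 3.55% (microglia) and 4.21% (vascular). Without thinning the shares were 95.3% in the Chst9 gate, 34.3% in the Drd2 gate and 5.96% in oligodendrocytes, at median depths of 4885 to 8709, 7036.5 to 13189 and 1368 to 2135 UMIs over the libraries. The Foxp2 of the Slc5a7 gate (10.6 ± 5.27%) and the Sst gate (9.41 ± 5.99%) differed from the oligodendrocyte share by less than their own SD. The Slc5a7 share differed from the astrocyte share by more than its SD. Without thinning these gates had 19.2% and 15.1%, so whether their Foxp2 is background was not settled. Oligodendrocytes carried Foxp1 in 56.7% of nuclei, so they give no background for it.

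At this depth Foxp1 was seen without Foxp2 in 68.9 ± 2.04% of Drd2-gated nuclei and 3.35 ± 1.21% of Chst9-gated ones. Foxp2 was seen without Foxp1 in 67.1 ± 1.51% of Chst9-gated nuclei and 2.55 ± 0.388% of Drd2-gated ones. A factor not seen after thinning can still be present. In the Chst9 gate Foxp1 was seen in 29.4% of nuclei with thinning and in 55.3% without it. Drd1-gated and Drd3-gated nuclei most often had both, 50.1% and 45.2%, and the Otof gate was split into 35.4% with both, 29.3% with Foxp1 alone and 27.2% with Foxp2 alone. In the Slc5a7 and Sst gates 56.4% and 55.9% of nuclei showed neither at this depth. Without thinning, Foxp1 was seen in 82.6% and 70.8% of nuclei in these gates, so the shares with neither depend on depth. Foxp2 with Tshz1 was found in 48.0 ± 2.29% of Chst9-gated, 16.6% of Otof-gated, 8.35% of Drd1-gated and 1.58% of Drd2-gated nuclei, with 0.890% in oligodendrocytes. Isl1 without Foxp2 was found in 19.1 ± 6.54% of Slc5a7-gated nuclei and 3.69% of Drd3-gated ones. Isl1 or Ebf1 was found in 22.8% of Drd3-gated, 18.8% of Drd1-gated, 2.57% of Drd2-gated and 2.35% of Chst9-gated nuclei. The Drd2 and Chst9 shares lay near that of oligodendrocytes, 2.34%. Other classes had 1.18% (astrocytes), 1.54% (microglia), 10.4% (precursors) and 98.2% (vascular), so whether the Drd2 and Chst9 shares are background was not settled.

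Single factors were counted at this depth as well. Tshz1 was seen in 48.9% of Chst9-gated, 20.2% of Otof-gated and 10.8% of Drd3-gated nuclei, and in 8.99% of Drd1-gated and 5.93% of Drd2-gated nuclei. The Slc5a7 gate (1.84%) and the Sst gate (2.25%) lay below the 8.71% of oligodendrocytes, so that share is not a background level for Tshz1. Casz1 was seen in 7.95% of Chst9-gated, 6.94% of Otof-gated and 5.57% of Drd3-gated nuclei and in 0.276% of oligodendrocytes. A Drd1-gated nucleus carried 3.14 ± 0.142 of the 10 factors on average, a Chst9-gated one 3.17, an Otof-gated one 3.07, a Drd2-gated one 2.67, and a Drd3-gated one 2.76 to 3.14 over the libraries. The Slc5a7 and Sst gates carried 1.25 and 1.20, with none of the 10 in 25.5% and 33.3% of nuclei.

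**Figure D3:**
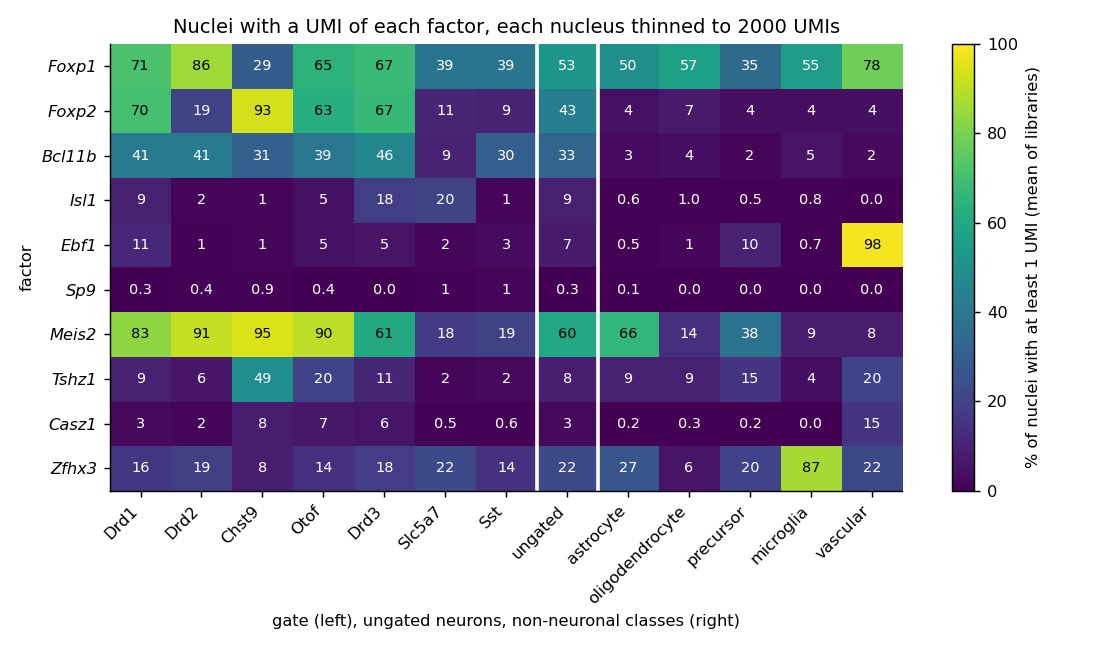
Percent of nuclei with at least 1 UMI of each factor after thinning to 2000 UMIs (mean of 6 libraries, factors against gates and other classes). The Chst9 gate has 93.1% for Foxp2 and 48.9% for Tshz1, and oligodendrocytes have 7.22% and 8.71%.

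Within single gates some factors shared nuclei more often, and others less often, than the product of their shares, and these pairs are given as descriptions. In the Otof gate Tshz1 and Casz1 met in 2.82% of nuclei where the product was 1.40%, and Foxp2 and Tshz1 in 16.6% where it was 12.7%, both above in 6 of 6 libraries. Foxp1 and Tshz1 met in 9.38% where the product was 13.1%, and Isl1 and Tshz1 in 0.185% where it was 0.909%, both below in 6 of 6. In the Drd3 gate Isl1 and Meis2 met in 8.39% where the product was 11.1%, while Isl1 and Casz1 met in 1.89% where it was 1.03%. In the Slc5a7 gate Isl1 and Meis2 met in 1.04% where the product was 3.47%, and Foxp2 and Meis2 in 6.76% where it was 2.14%. Each of these 4 pairs kept its direction in 6 of 6 libraries. These pairs are examples among all pairs of the 10 factors and were not tested. Shares near 1% of the 374 Slc5a7-gated nuclei left after thinning rest on few nuclei.

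The Otof and Drd3 gates were opened further by splits chosen after values had been seen, so they carry no test. Otof-gated nuclei with Drd2 on (1032) had Foxp1 at 1376 ± 122 CPM, Foxp2 at 352 ± 120 and Isl1 at 9.11 CPM. Those with neither dopamine receptor on (2851) had Foxp1 at 650 ± 70.6, Foxp2 at 2193 ± 98.7, Ebf1 at 93.4 and Casz1 at 42.1 CPM. The 388 nuclei with at least 2 UMIs of Mdfic had Foxp2 at 4210 ± 338 CPM, Tshz1 at 292 and Casz1 at 127, with Foxp1 at 323 and Isl1 at 4.74. The 3362 nuclei without Mdfic had Foxp2 at 1214, Tshz1 at 72.3, Casz1 at 18.7, Foxp1 at 976 and Isl1 at 28.7 CPM. On these means the Mdfic nuclei lay near the Chst9 gate in Foxp1 and Tshz1 and above it in Foxp2 and Casz1.

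The Drd3 gate divided by Adamtsl1, a gene of secreted matrix-associated proteins that varied there (263 ± 110 CPM). The 899 nuclei with at least 2 UMIs had Isl1 at 150 CPM (123 to 184 over libraries) and Casz1 at 58.8 (45.9 to 75.6), but Meis2 at 560 (348 to 736) and Foxp1 at 526. The 1680 nuclei with none had Isl1 at 52.2 CPM (43.0 to 71.1), Casz1 at 6.99 (4.72 to 9.57), Meis2 at 1344 (1164 to 1537) and Foxp1 at 1057. The ranges of Isl1, Casz1 and Meis2 did not overlap between the subsets. Ebf1 was 15.5 CPM with Adamtsl1 and 55.5 without, Tshz1 was 95.2 and 28.7, and Zfhx3 was 173 and 81.7. Depth moved with this split, with library medians of 3242.5 to 6867 UMIs with Adamtsl1 and 7374 to 15439 without, and its part was not tested. The levels of the whole Drd3 gate thus average unlike nuclei, which its single mean for Isl1 or Meis2 does not show.

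**Figure D4:**
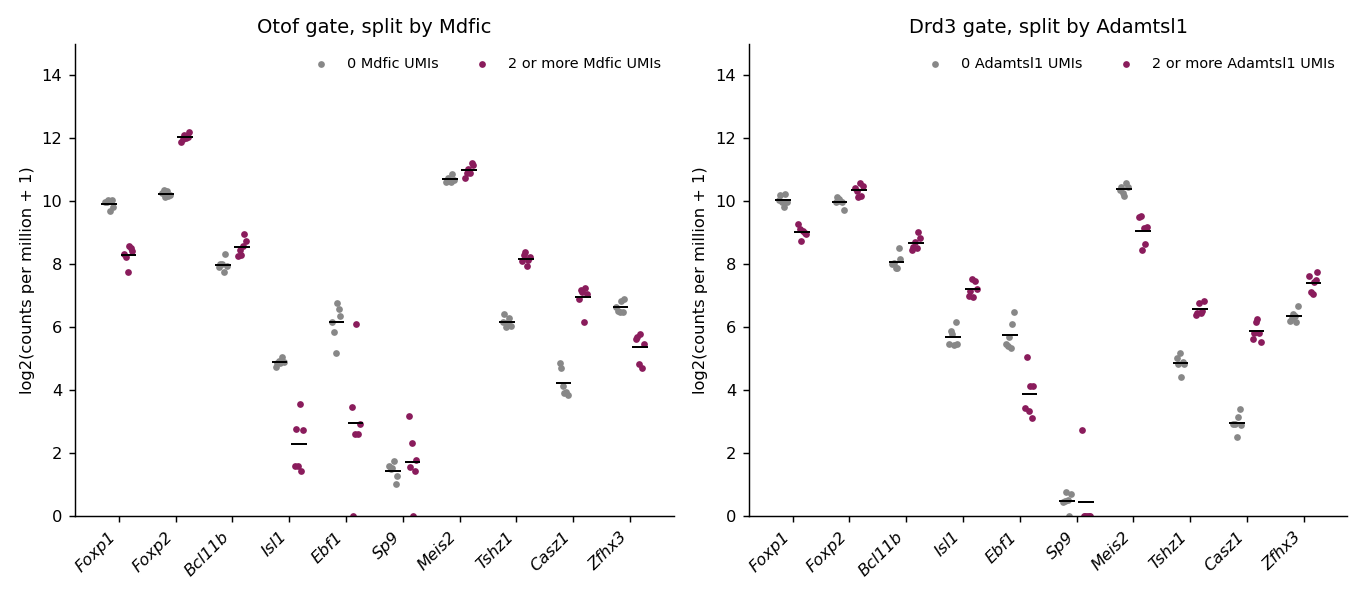
Levels of the 10 factors, as log2(CPM + 1), in the Otof gate split by Mdfic and in the Drd3 gate split by Adamtsl1, with 1 point per library and a bar at the mean. Casz1 and Tshz1 are higher in the nuclei with 2 or more UMIs of either splitting gene, and Foxp1 is lower.

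In the Chst9 gate the levels followed the count of Chst9 itself. From nuclei at 2 UMIs over 3 to 4 and 5 to 9 to those at 10 or more, Foxp2 was 1823, 2427, 3137 and 3698 CPM, and Tshz1 was 159, 262, 323 and 396. Foxp1 ran down, from 506 over 330 and 269 to 190 CPM, and Isl1 was 18.9 CPM at 2 UMIs and 4.26 at 10 or more. Drd2 ran down with them, from 78.8 over 44.2 and 26.3 to 7.59 CPM, so the low end of the gate held nuclei with other markers. The 132 Chst9-gated nuclei with Drd2 on had Foxp1 at 796 ± 116 and Foxp2 at 1051 ± 162 CPM. In the Drd3 gate the same split changed little, with Isl1 at 71.1, 78.0 and 83.0 CPM from 2 over 3 to 4 to 5 to 9 UMIs.

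Outside the neurons the factors marked other classes. Ebf1 was highest in the 228 vascular nuclei, at 3722 ± 756 CPM, and stood at 70.2 in oligodendrocyte precursors. Zfhx3 was highest in the 1048 microglia, at 1946 ± 217 CPM. Foxp1 stood at 1693 CPM in vascular nuclei and 529 ± 32.6 in oligodendrocytes, and Meis2 at 686 in astrocytes. Isl1 had 0 UMIs in vascular nuclei, and Sp9 had 0 there and in precursors. Microglial markers, at 5754 CPM in microglia, averaged 28.5 to 67.8 CPM in the gates, and their part in the neuronal Zfhx3 was not tested. The Slc5a7 gate, with the highest gate mean for Zfhx3, had the lowest of these averages, 28.5 CPM.

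Relatives of the factors and other factors of forebrain GABA neurons were read in the same contrasts. Of 13 paralogs 9 were tested, and of 24 other lineage factors 20. Against the Drd1 gate, the Drd2 gate had 1 paralog higher (Zfhx4, 1.32 on the log2 scale) and 1 lower (Tshz2, -1.52), and 1 lineage factor lower (the homeobox gene Pbx3, -1.30). The Chst9 gate had 2 paralogs higher (Ebf4, 1.34, and Meis1, 1.01) and 1 lower (Tshz2, -2.25), with 3 lineage factors higher and 3 lower, among them the retinoic acid receptor gene Rarb (-1.67). Tshz2 and Tshz1 therefore moved in opposite directions in this gate. The Otof gate had Zfhx4 higher (0.84) and Tshz2 lower (-0.50), and the Drd3 gate had Ebf4 higher (1.87). The Otof gate had 2 lineage factors higher and 1 lower, the Drd3 gate 2 higher and 0 lower.

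The interneuron gates showed the other lineages. In the Slc5a7 gate 5 paralogs were higher and 3 lower, and 7 lineage factors were higher and 6 lower. Tshz3 (211 CPM against 7.12 in the Drd1 gate, log2 difference 4.65) and Ebf4 (277 against 13.9, 4.35) led the paralogs. Lhx8, a LIM-homeobox factor of cholinergic neurons, was 218 CPM against 6.28 (5.57). In the Sst gate 2 paralogs were higher and 0 lower, and 6 lineage factors were higher and 6 lower. Sox6 stood at 2530 CPM against 86.4, Lhx6 at 72.7 against 2.20 and Satb1 at 61.1 against 5.32, all 3 known from interneurons of the medial ganglionic eminence. Nkx2-1, the gene that specifies that eminence, was 5.32 CPM in the Slc5a7 and 6.27 in the Sst gate, with 0 UMIs in the Drd1 gate.

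The 2 genes most alike to each factor over 12 groups of nuclei were found among 12025 genes by Pearson's r of mean log2(CPM + 1). The groups were the gates and the non-neuronal classes. They share libraries, so r is a description. Foxp1, Ebf1 and the genes most alike to these 2 were all highest in vascular nuclei, and Zfhx3 and its 2 in microglia. Foxp1 was most like Scn4b (0.93), a sodium channel subunit gene of spiny neurons, and Ark2n (0.89), and Foxp2 was most like R3hdm1 and Ccdc187 (both 0.91). Bcl11b was most like Ndrg4 (0.99) and the glutamate receptor gene Grm4 (0.98), Isl1 like Ttc6 (0.90) and Ccdc158 (0.89), and Ebf1 like Pde5a (0.96) and Hmcn1 (0.94). Sp9 was most like Npffr1 (0.94) and Dnah9 (0.92), Meis2 like Mok (0.98) and Tasp1 (0.96), and Tshz1 like Ptgr3 (0.88) and Hacl1 (0.85). Casz1 was most like Plxdc1 (0.94) and Stc1 (0.93), and Zfhx3 like Cotl1 (0.96) and Rgs19 (0.95).

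The second question was whether the factors held their levels 1 h after naloxone. By edgeR's quasi-likelihood test 0 of the factors tested passed an adjusted p of 0.05 in any of the 7 gates, in all neurons or in all nuclei, and DESeq2 also called 0. The factors tested numbered 8, 10, 10, 10, 9, 6 and 5 in the Drd1, Drd2, Chst9, Otof, Drd3, Slc5a7 and Sst gates. Of all genes, 0.132%, 0.137% and 0.131% were called in the Drd2, Chst9 and Otof gates, 0% in the Drd1, Drd3, Slc5a7 and Sst gates, 0.149% in all neurons and 0.0346% in all nuclei. At an unadjusted p under 0.05, 0 factors passed in the Drd1 gate, 1 each in the Drd2, Chst9, Otof, Drd3 and Slc5a7 gates and 2 each in the Sst gate, all neurons and all nuclei. The share of all genes that did so was 6.54% in the Drd1, 11.6% in the Drd2, 10.6% in the Chst9 and 12.4% in the Otof gate. It was 8.71% in the Drd3, 5.33% in the Slc5a7 and 3.54% in the Sst gate, 15.9% in all neurons and 14.3% in all nuclei. A missing call does not show that levels were equal, so the intervals are given next.

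Over the 58 factor and gate pairs that could be fitted, of 70, the median absolute log2 difference was 0.172. The 95% interval covered 0 in 51 pairs and lay within 1 log2 unit of 0 on both sides in 49. In the Drd2 gate Foxp1 differed by -0.04 (95% interval -0.22 to 0.13), and in the Chst9 gate Foxp2 differed by 0.14 (-0.01 to 0.29) and Tshz1 by 0.09 (-0.09 to 0.26). The interval excluded 0 in 7 pairs, 1 of them Ebf1 in the Otof gate (0.84, 0.45 to 1.23). Foxp2 differed by -2.12 (-3.56 to -0.69) in the small Sst gate and by -0.35 (-0.66 to -0.04) in the Drd2 gate. Meis2 differed by -0.74 (-1.34 to -0.13) in the Slc5a7 gate and by 0.18 (0.01 to 0.34) in the Chst9 gate. Zfhx3 differed by 0.72 (0.02 to 1.42) in the Sst gate and Bcl11b by 0.25 (0.01 to 0.50) in the Drd3 gate. None of these 7 passed, with edgeR adjusted p from 0.0977 to 0.999. Without the filter on low counts, edgeR called Foxp2 in the Sst gate (adjusted p = 6.98e-08) and Meis2 in the Slc5a7 gate (adjusted p = 0.00429), the only alternative that called either. That alternative called 2 factors in each of these gates, and the other factor was below the filter of the main fit. Among factors that passed the filter, libraries of the groups did not overlap for 2 of 10 factors in the Chst9 gate (Foxp2 and Sp9; 15.7% of all genes), 1 of 10 in the Otof gate (Ebf1; 18% of all genes), 1 of 5 in the Sst gate (Zfhx3; 9.1%) and 0 of 8, 10, 9 and 6 in the Drd1 (11.7%), Drd2 (18.2%), Drd3 (14.8%) and Slc5a7 (10.8%) gates. Ebf1 in the Slc5a7 gate was below the filter. It read 29.6, 9.38 and 33.8 CPM after saline and 1.41, 6.45 and 0.886 after naloxone, and these groups did not overlap either.

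Ebf1 in the Otof gate came nearest to a call. It read 59.7, 49.96 and 31.8 CPM after saline and 99.1, 80.4 and 72.6 after naloxone. All naloxone libraries were above all saline libraries. The log2 difference was 0.84 (95% interval 0.45 to 1.23), with an edgeR p of 0.000454 and an adjusted p of 0.0977, and over the alternatives the adjusted p ran from 5.2e-10 to 0.318. Without naloxone replicate 5 it was called (0.87, adjusted p = 0.00675), as was Zfhx3 (0.29, adjusted p = 0.0360). Vascular markers in this gate summed to 4.27, 6.39 and 2.20 CPM after saline and 7.01, 2.81 and 3.01 after naloxone, and these groups overlap. Drd2, with low Ebf1, was on in 27.0%, 24.7% and 29.4% of Otof-gated nuclei after saline and 23.5%, 22.8% and 23.6% after naloxone, and its part was not tested. In Otof-gated nuclei with neither Drd1 nor Drd2 on, Ebf1 read 86.9, 68.2 and 46.0 CPM after saline and 145, 111 and 103 after naloxone.

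Bcl11b was highest in naloxone replicate 5 in 6 of the 7 gates, the exception being the Slc5a7 gate. In the Drd1 gate it read 277, 287 and 264 CPM after saline and 278, 445 and 322 after naloxone, and in the Drd2 gate 260, 270 and 252, then 260.0, 377 and 288. The log2 difference was 0.34 in the Drd1, 0.25 in the Drd2 and 0.25 in the Drd3 gate (edgeR adjusted p = 0.559 in the last). That library also had the highest mitochondrial share, 0.565%, and the part of this in the Bcl11b value was not tested.

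The naloxone effect was compared between gates by the gate and treatment term. For Drd2 minus Drd1 it passed for 0 of 9 factors by edgeR and by DESeq2, beside 0.0248% of all genes. An unadjusted p under 0.05 was found for 1 factor, Foxp2 (-0.45, edgeR adjusted p = 0.677), and for 5.75% of all genes. For Chst9 minus Drd1 it passed for 0 of 9 by both tools, beside 0% of all genes. There 0 factors had an unadjusted p under 0.05, beside 5.12% of all genes. The thinned shares were averaged by treatment and were not tested. Foxp1 without Foxp2 averaged 68.7% of Drd2-gated nuclei after saline and 69.0% after naloxone, and Foxp2 without Foxp1 averaged 66.9% and 67.2% of Chst9-gated nuclei. Single factors lay further apart in some gates. Bcl11b was seen in 33.3% of Drd1-gated nuclei after saline and 49.4% after naloxone. Meis2 was seen in 65.7% and 56.1% of Drd3-gated nuclei and in 22.2% and 13.2% of Slc5a7-gated nuclei.

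**Figure D5:**
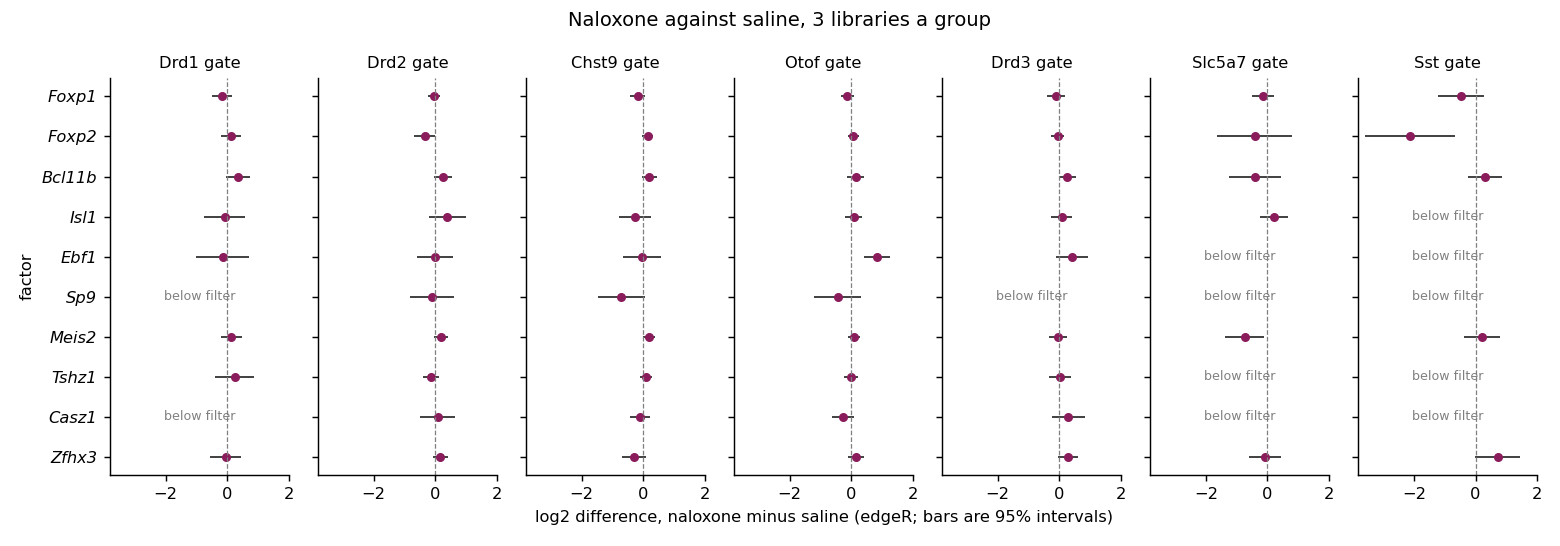
Log2 difference, naloxone over saline, of each factor in each gate with its 95% interval from edgeR, a panel per gate and a dashed line at 0. Of the 58 intervals 51 cover 0, and the Ebf1 interval in the Otof gate (0.45 to 1.23) is among the 7 that do not.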

How the data were processed

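Nuclei of 6 libraries, 3 saline and 3 naloxone, were read from the deposited UMI counts per gene and barcode, which are raw and not normalized. Per the submitters' processing notes and the file headers the authors used Cell Ranger 9.0.1. The notes also name Seurat 5.2.1, R 4.4.0 and mRatBN7.2. The labels state 44592 nuclei and the matrices hold 64260 barcodes, so the authors' own selection was not used.

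The filter asked for 500 genes or more and a mitochondrial share of 5% or less (61609 nuclei), and 2649 doublets (4.30%), called from simulated pairs at 0.4% per 1000 nuclei, were removed, leaving 58960. Classes were set by marker lists with a minimum of 5 UMIs. Gate genes were on at 2 UMIs. Counts were summed per library and gate, and CPM were computed from them. edgeR 4.0.16 in R 4.3.3 (TMM, filterByExpr, quasi-likelihood F-test, Benjamini-Hochberg, threshold 0.05) gave the tests: gates in 1 fit of 42 sums with the library as a block, and naloxone against saline within each gate. The fits were tested on simulated data. DESeq2 1.42.0 was an alternative. Shares were counted after thinning to 2000 UMIs.

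The text names the 10 factors in every gate, up to 4 called genes of each list per contrast by size, and the 2 most alike genes per factor with a mean of at least 10 CPM in some group. Splits by Mdfic, Adamtsl1, receptor and UMI count, and the Slc5a7 and wider gates, were chosen after seeing the data. The factors and lists were chosen with earlier results of these data known. The labels name no batch. Errors are SDs over libraries.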

Additional observations from a re-analysis of the deposited data

How the results depend on the processing

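Results were recomputed without any library in turn, with DESeq2, with RLE factors, without the low-count filter, without the library block, with doublets kept, from nuclei of at least 1000 genes and with gate genes on at 1 or 3 UMIs. Drd1 and Drd2 gates set without the other gate genes were added after seeing the data. Of the log2 differences recomputed, 2004 kept their side of the threshold, 45 lost the call, 21 gained one and 2 reversed with a call. Of the 2004, 134 changed sign, none of them called, and 110 of these were naloxone differences. The 2 reversals were Casz1 in Drd2 against Drd1 (-0.57 with the wider gates, 0.62 before) and Foxp1 in Otof against Drd1 (0.32 with gate genes on at 1 UMI, -0.00 before), neither called before and both called under that alternative. The cause was not tested. Factors called against the Drd1 gate moved from 3 to 2 (on at 3 UMIs), 5 (no filter) or 7 (on at 1 UMI) in the Otof gate, and to 3 to 4 leaving out a library. In the Drd2 gate they moved from 6 to 4 (no library block, on at 3 UMIs), 5 (DESeq2, RLE factors), 7 (on at 1 UMI) or 8 (wider gates). Leaving out a library gave 4 to 5 there. In the Chst9 gate they moved from 10 to 7 (on at 3 UMIs), 8 (DESeq2, no library block) or 9 (on at 1 UMI), and to 8 to 10 leaving out a library. In the Drd3 gate they moved from 2 to 1 (DESeq2, doublets kept, on at 3 UMIs, no library block) or 4 (no filter, on at 1 UMI), and to 1 to 3 leaving out a library. The Slc5a7 count was 8 in every alternative. For naloxone, 0 factors became 1 in the Otof gate (no filter, on at 1 UMI; 0 to 2 leaving out a library), 2 in the Slc5a7 and in the Sst gate (no filter) and 0 to 1 leaving out a library in the Slc5a7 gate and in all neurons. Without naloxone replicate 5 Zfhx3 was called in all neurons (0.28, adjusted p = 0.0203). Counts of all genes called varied more: for naloxone 17 in the Drd2 gate (111 by DESeq2, 218 unfiltered, 5 to 230 leaving out a library), 16 in the Chst9 (27, 204, 0 to 19), 17 in the Otof (81, 361, 0 to 437), 0 in the Drd3 (14, 160, 0 to 9), 25 in all neurons (508, 78, 0 to 834) and 6 in all nuclei (395, 43, 0 to 257). Unfiltered, it was 25, 53 and 16 in the Drd1, Slc5a7 and Sst gates, against 0. Against the Drd1 gate it was 557 for Drd2 (330 to 1259 over alternatives), 510 for Otof (292 to 1218), 725 for Drd3 (433 to 1178) and 2716 for Chst9 (1688 to 2881). For Sst it was 2706 (1735 to 2837). No paired analysis was possible because the groups share no replicate numbers. The Drd1 and Sst gates, with 32 to 62 and 17 to 37 nuclei per library, limit what could be detected.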
